A study of Glycine max with 18 samples.

Results

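The endosperm of the cotyledon-stage soybean seed was represented by 2 of the 18 arrays in the series, and it was set against the 14 arrays of the other 7 captured compartments. The endosperm arrays were chosen by their labels alone, not by any measured value, whereas the gene lists below were drawn up with earlier results of these data known. The compartments compared with it were the embryo proper, the suspensor and 5 parts of the seed coat, namely endothelium, epidermis, hilum, inner integument and outer integument, each with 2 arrays. The remaining 2 arrays held whole seed and stayed outside the comparison. Every group came from the same material: untreated Asgrow A3237 seeds that measured 2.5 to 3.0 mm, on plants kept at 22 °C under 16 h of light and 8 h of dark. After fixation with acetic acid in ethanol, the seeds were set in paraffin and sliced into 8 µm sections, from which each compartment was cut out with a laser. RNA was isolated from the captures with a PicoPure kit, and 2 ng of it was amplified with a RiboAmp OA kit, biotin-labelled, and measured on Affymetrix arrays designed for the soybean genome. The labels do not state how many seeds or plants an array holds, so the p-values below measure the spread between these samples alone, and captures of different compartments may come from the same seeds.

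Endosperm is the seed tissue that forms beside the embryo after the central cell of the embryo sac is fertilized. It first grows as a cytoplasm shared by many nuclei, then forms cell walls, and it passes sugars and amino acids from the maternal seed coat to the embryo. In legumes it is largely consumed while the cotyledons fill, and the cotyledons take over storage.

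Both endosperm arrays held little of the marker signal of the tissues that touch them. The summed signal of 5 embryo proper markers was 5520 and 4590 in the endosperm arrays against 55400 to 60100 in embryo proper, and PHANa, described below, made up most of it. The summed signal of 5 suspensor markers was 914 and 932 against 211000 to 259000 in suspensor. For 9 measured seed coat markers the sums were 5880 and 6440 against 101000 to 234000 in the seed coat arrays, and SCB1, at 3555.9 and 3323.0, carried the larger part of each sum. Among the markers that read low, GmYABBY11 (an embryo proper marker here, at 4741.0 and 6123.3 in that tissue) was at 26.1 and 33.5. PM25 (a suspensor marker here) read 42.8 and 13.2, and MADS28 (a seed coat MADS-box factor here) 39.9 and 91.7. The endosperm mean was under background for 3 of 5 embryo proper, 3 of 5 suspensor and 4 of 9 seed coat markers. Others were not low: PM32, a suspensor marker here, read 268.2 and 433.9, against 25.6 to 129.3 on the remaining captured arrays outside suspensor. ANR1, a seed coat marker here, read 328.7 and 522.3, against 133.9 and 502.6 in endothelium and 39338.0 and 39277.7 in hilum. The label could not be checked against positive markers, because 0 of 8 endosperm genes known from Arabidopsis (AGL62, FIS2, MEA, PHE1, ZOU, ICE1, FWA and AGL80) were carried by a probe set under that name. GY1, the glycinin in the embryo list, was under background in embryo proper too, at 66.2 and 94.5. In the seed coat list, PRP2 was highest in suspensor (10700.5 and 10339.4), and Ep was at 106.2 to 321.4 in the seed coat arrays. These marker names include genes picked with earlier results of the same arrays known.

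The endosperm arrays were similar to each other, with a Pearson correlation of 0.966 across the tested probe sets, inside the 0.935 to 0.975 seen between the 2 arrays of the other compartments. The share of soybean probe sets at a signal of 100 or more was 56.7% and 61.4%, against 58.5% to 67.5% in the other 14 arrays. The 95th percentile of probe sets for other organisms, a measure of background, was 123 and 161 in endosperm and 123 to 216 elsewhere. Against the compartment means, endosperm correlated at 0.849 with endothelium, 0.845 with embryo proper, 0.844 with suspensor and 0.843 with epidermis, and at 0.809, 0.805 and 0.795 with hilum, inner integument and outer integument. Genes are not independent replicates, and these correlations describe the arrays only.

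Endosperm differed from the mean of the other 7 compartments in 9310 of 31760 tested probe sets (29.3%). Of these, 4593 were higher in endosperm (14.5%) and 4717 were lower (14.9%), at an adjusted p under 0.05 in limma's moderated test on log2 signal with Benjamini-Hochberg adjustment, which gave all adjusted p-values below. The fold is the ratio of geometric means with each compartment weighted equally and signals under 50 set to 50. The rises were fewer at 4-fold and more at 32-fold. In numbers, 654 probe sets were at least 4-fold higher and 1458 at least 4-fold lower, whereas 82 were at least 32-fold higher and 30 at least 32-fold lower. In 676 falls both endosperm arrays were under the floor, and in 4 rises all 14 other arrays were. These counts ask for 2 arrays in a fall and 14 in a rise, and a rise is also made smaller where only some of the 14 are under the floor. They therefore do not show which direction the floor limits more often. The lower side was under background in 45.1% of falls and 15.6% of rises. Both endosperm arrays lay above all 14 others in 2412 probe sets (7.59%) and below all 14 in 1334 (4.2%), and 2274 (7.16%) and 1276 (4.02%) of the tested probe sets also passed in that direction. In bulk captures, fewer cells of a type and less RNA per cell cannot be told apart.

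The size of these counts rested on both endosperm arrays and on how the spread was measured. Without endosperm array 1 the count was 5094 (2339 higher and 2755 lower), and without endosperm array 2 it was 5771 (2668 higher and 3103 lower). A fit of 2 groups, which by its construction takes the differences among the other 7 compartments as spread, called 1349 probe sets, 744 higher and 605 lower.

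**Figure D1:**
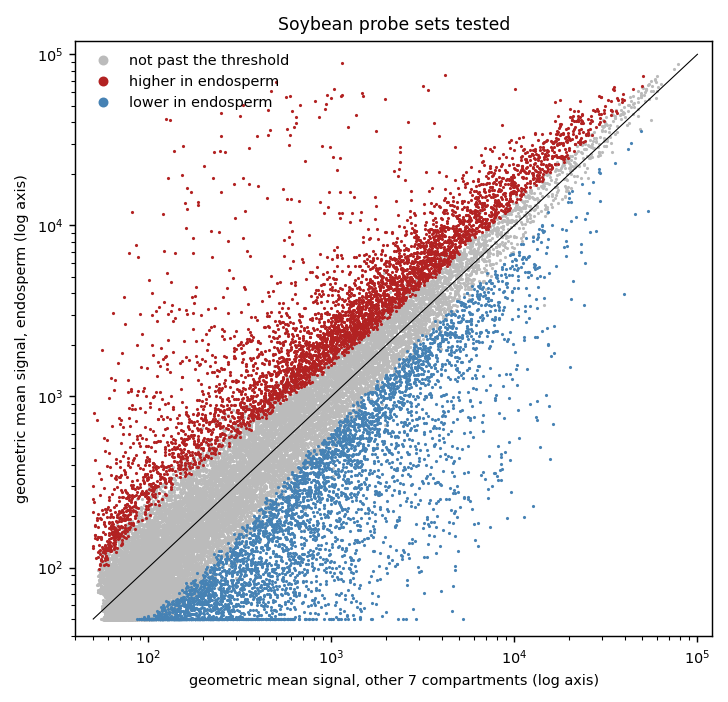
Geometric mean signal in endosperm (vertical, log axis) against that of the other 7 compartments (horizontal, log axis) for the 31760 tested soybean probe sets. Red points were higher (4593) and blue points lower (4717) at an adjusted p under 0.05, and the points along the lower edge had both endosperm arrays at the floor of 50.

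The probe sets at least 32-fold higher stand at the top of the plot of mean signals. Their median endosperm signal was 27000 and their median signal in the other compartments was 279, and in all 82 both endosperm arrays lay above all 14 others. None of the 82 carried a gene name by a single symbol: 14 had 1 symbol, a gene number, and 68 had no single symbol. Those 68 were either not in the probe annotation or listed there with several symbols. The largest rise was at probe set GmaAffx.2585.1.S1_at, with signals of 40775.4 and 43528.9 in endosperm and 4.3 to 2340.8 elsewhere (335-fold, log2 8.39 ± 0.88 SE, adjusted p = 1.34e-06). Next came GmaAffx.10483.1.A1_at, at 39064.6 and 43062.5 against 6.2 to 1524.7 (312-fold, log2 8.29 ± 0.58 SE, adjusted p = 1.38e-08). Among the falls, the largest was Gma.4018.1.S1_at, which read 42.5 and 13.2 in endosperm and 530.9 to 34468.0 elsewhere, at least 105-fold lower (adjusted p = 7.92e-13). GmaAffx.54479.2.A1_s_at followed at 62.8 and 23.9 against 634.8 to 66587.3 (81.7-fold, adjusted p = 1.07e-10). Named genes thus cover the smaller part of the difference: 21 of 260 probe sets at least 8-fold higher and 68 of 501 at least 8-fold lower had a name by a single symbol.

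Compartment by compartment, the number of probe sets called ran from embryo proper at the low end to the integuments at the high end, an order that did not hold without 3 arrays of high background. Against embryo proper 6888 probe sets passed (21.7%), 3172 of them higher in endosperm (9.99%) and 3716 lower (11.7%). The counts were 7226 against suspensor (22.8%), 7247 against endothelium (22.8%) and 7517 against epidermis (23.7%). They rose to 8853 against hilum (27.9%), 9324 against outer integument (29.4%) and 9561 against inner integument (30.1%). These contrasts share the 2 endosperm arrays, and the order rests on few arrays. The fit without 3 arrays, given next, cannot tell whether background set the order. It kept hilum array 2, whose background of 216 was the highest, while the arrays left out were at 198 to 214. It also left each of the 3 affected compartments with a single array, whereas hilum kept both. Without epidermis array 2, inner integument array 1 and outer integument array 1, which had high background, the counts were 4989 for epidermis, 6854 for outer integument, 7062 for embryo proper, 7460 for inner integument, 7466 for suspensor, 7484 for endothelium and 9169 for hilum. Without a single array of its pair, embryo proper gave 4311 or 4343, and without endosperm array 1 the counts were 4545 against embryo proper, 4594 against suspensor, 4925 against epidermis and 5888 against hilum.

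**Figure D2:**
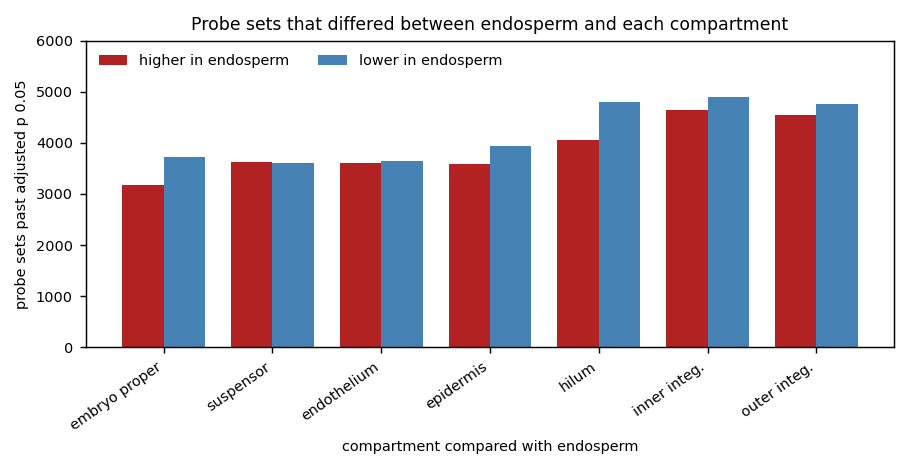
Number of probe sets higher (red) and lower (blue) in endosperm than in each of the other 7 compartments (horizontal axis) at an adjusted p under 0.05. The bars are 3172 and 3716 against embryo proper and 4653 and 4908 against inner integument.

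Few probe sets set endosperm apart from every compartment at once. It was higher than each of the other 7 in 568 probe sets (1.79%) and lower than each in 548 (1.73%), with a median fold of 3.58 in the first set and 6.17 in the second. The count of 568 was 232 without endosperm array 1, 307 without endosperm array 2 and 366 without embryo proper array 1. Of the 4593 rises, the highest of the other 7 compartments was embryo proper for 1237 (26.9%) and suspensor for 1141 (24.8%). Outer integument came last with 311 (6.77%). Of the 4717 falls, the lowest of the other 7 was suspensor for 1410 (29.9%) and embryo proper for 1109 (23.5%). The compartment so named could itself lie above endosperm in a rise or below it in a fall. These shares were not counted over all tested probe sets. Of the falls, 676 had both endosperm arrays at or under the floor, and in 45.1% the endosperm mean was under the background level, so that these folds depend on background.

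Of 1041 named genes measured, 167 rose (16.0%), 288 fell (27.7%) and 586 did not pass. Their median log2 fold was -0.30 beside -0.10 over all tested probe sets. The counts of each gene list below are to be read beside these shares. The 24 largest named rises whose endosperm arrays lay above all 14 others and the 20 largest falls with the opposite pattern are described by role below, with members of gene lists drawn up by name. In the 2-group fit, 12 of these 24 rises passed (CYSP2, LAX11, ERF5, OAS-TL2, CLV1A, SGF14f, CYP97B2, BIP2, GS1alpha, MYB52, GRR1 and AIR12) and 11 of the 20 falls (GASA14, AOC3, RCA14, CAB3, SRC1, C4H, AOC4, CRY2B, PEPC17, PRX2 and GH1). That fit ended 237 calls among the 292 named genes followed. It left 4 falls in photosynthesis, 3 rises in heat shock and chaperones, 2 rises in 14-3-3 proteins, and 2 falls each in jasmonate, ethylene, bZIP and glutathione S-transferase genes. It left 0 calls among aquaporins, MADS-box factors, early flavonoid genes, plastid fatty acid synthesis, ribosomal proteins and maturation genes, and 0 or 1 in each direction for the other lists.

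Proteases and their kin were led by CYSP2, a cysteine protease and the largest named rise above all other arrays. CYSP2 read 1801.8 and 1787.0 in endosperm, and 7.6, 62.0 and 198.7 as the lowest, median and highest of the other 14 arrays. Every other array was far below both endosperm arrays, and 5 of the 14 were under the floor. CYSP2 was 24.9-fold higher (log2 4.64 ± 0.39 SE, adjusted p = 1.02e-07) and higher than each of the 7 compartments. VPE, a vacuolar processing enzyme that matures proteins in the vacuole, read 1461.2 and 1103.5 and was 3.4-fold higher (adjusted p = 0.000292), but it was lower than in suspensor, whose mean was 5170. Of 6 measured proteases of this list, 2 rose, 2 fell (CP3 by 2.78-fold and VPE2 by at least 3.62-fold) and 2 did not pass. VPE2 had an adjusted p of 0.113 and 0.106 without endosperm array 1 and 2.

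Heat-shock proteins, chaperones and protein disulfide isomerases gave 8 rises and 4 falls among 25 measured genes, with 13 that did not pass (median log2 fold 0.51). BIP2, the luminal chaperone of the secretory pathway, read 12362.5 and 11792.8 in endosperm against 936.7, 3040 and 6673.9 (lowest, median, highest). Every endosperm value lay above every other one, with outer integument the nearest at a mean of 5970. The rise was 4.48-fold (log2 2.16 ± 0.19 SE, adjusted p = 1.45e-07), and BIP2 was higher than in each of the 7 compartments. PDIM-1, a protein disulfide isomerase, was among the brightest named genes, at 48548.1 and 47387.5 against 11127.3 to 34703.2 (2.37-fold, adjusted p = 1.13e-06), also higher than in each. BIP4 (2.5-fold), PDIL-1 (2.02-fold) and PDIL-2 (2.28-fold), mentioned after their values were seen, rose as well, with adjusted p-values of 0.0942, 0.192 and 0.27 in the 2-group fit. The heat-shock proteins HSP23.9 and HSP90A1 had a different pattern, in that suspensor or endothelium came close. HSF-10, a heat-shock transcription factor given further below, did not share it, with both endosperm arrays above all others. HSP23.9, a small heat-shock protein, read 19198.7 and 19428.8 in endosperm and 15400 in suspensor, with the other means at 5710 or less (8.31-fold, adjusted p = 6.43e-06). HSP90A1, a cytosolic chaperone, read 1472.4 and 1440.6 against 32.7 to 1289.9 (5.8-fold, adjusted p = 0.00251) and was higher than 4 compartments. HSF-01, a heat-shock transcription factor, went the other way, at 154.6 and 131.5 against 429.6 to 55922.7, with means of 44400 in epidermis and 41400 in hilum (20.1-fold lower, adjusted p = 4.65e-09). HSF-03 and HSP17.5-E fell 1.99-fold each and HSF-30, with another probe set of opposite sign, fell 2.19-fold. Without endosperm array 1 these 3 did not pass (adjusted p = 0.288, 0.302 and 0.161) and HSF-01 was the fall left, and HSF-30 also lost its call without endosperm array 2 (0.246), either embryo proper array, endothelium array 2, inner integument array 1 or the 3 high-background arrays, with a floor of 100 or no floor, and with quantile normalization.

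Enzymes of cysteine and nitrogen metabolism divided between rises and falls. O-acetylserine (thiol) lyase makes cysteine from sulfide, and the gene OAS-TL2 read 2043.3 and 2620.4 in endosperm against 21.6, 200 and 917.8 (lowest, median, highest). Both endosperm arrays lay above all others, the nearest being an inner integument array. OAS-TL2 was 11.2-fold higher (log2 3.48 ± 0.48 SE, adjusted p = 2.88e-05), and OAS-TL3, at 5757.1 and 5110.4 against 280.7 to 2294.9, was 5.24-fold higher (adjusted p = 1.46e-07), each against all 7 compartments. Another probe set of OAS-TL3 had the opposite sign. The same list held falls for OAS-TL4 (1.67-fold, adjusted p = 0.00619) and for HGS (4.02-fold, adjusted p = 2.99e-07, lower than in each compartment), so 2 of 8 measured members rose, 2 fell and 4 did not pass. Without endosperm array 2 OAS-TL4 was 1.27-fold lower with an adjusted p of 0.341.

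Glutamate dehydrogenase, which links ammonium and 2-oxoglutarate with glutamate, changed in opposite ways by gene copy. GDH2 read 6200.9 and 6909.8 in endosperm against 81.7, 1250 and 6897.2, with suspensor (mean 5820) overlapping it and hilum at 95.9. It was 6.96-fold higher (log2 2.80 ± 0.27 SE, adjusted p = 6.06e-07) and higher than 5 compartments. GDH1 was 7.22-fold lower (adjusted p = 3.49e-07), at 105.6 and 156.1 beside means of 3050 to 5330 in endothelium and the integuments, although another of its probe sets had the opposite sign. ALAAT1, alanine aminotransferase, read 7224.5 and 5443.9 against 634.3 to 4513.0 (3.7-fold, adjusted p = 1.1e-05). GS1alpha, a glutamine synthetase, was dim everywhere: 179.8 and 283.2 in endosperm against 3.0, 9.1 and 144.1, and 10 of the 14 arrays were under the floor. Its fold of 3.76 (adjusted p = 0.00046) became 6.16 with a floor of 25, 2.18 with a floor of 100 and 16.7 with none. NRT1-3, a nitrate transporter by name, fell 19.6-fold. Of 18 measured nitrogen and amino acid genes, 3 rose, 3 fell (16.7% each) and 12 did not pass, so the rises were near the 16.0% of all named genes.

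Among transport and hormone genes, LAX11, an auxin influx carrier of the AUX1/LAX family, was the second largest named rise above all other arrays. Its signals were 12824.2 and 14627.1 in endosperm against 245.6, 738 and 3157.8. Both endosperm arrays lay far above the highest other array, which came from endothelium (mean 2950), and suspensor array 2 was close to that one at 3117.6. LAX11 was 15.7-fold higher (log2 3.97 ± 0.27 SE, adjusted p = 9.62e-09) and higher than in each compartment. The other auxin members that passed were falls: ADR11 by 11.3-fold (adjusted p = 3.83e-08), AUX22 by 3.86-fold (adjusted p = 9.28e-06) and TIR1C by 2.2-fold, so 1 of 8 rose, 3 fell and 4 did not pass. AIR12, named as an auxin-induced gene of roots, read 6531.8 and 7099.8 against 1261.9 to 5759.0 (3.67-fold, adjusted p = 3.77e-06), with suspensor the nearest at 4980. ERF5, an ethylene response factor, read 2321.7 and 2766.9 against 42.9, 225 and 581.5, and was 11.5-fold higher (adjusted p = 4.99e-06). A different gene that shares the name ERF5 (LOC100795557) was 2.89-fold lower (adjusted p = 4.29e-05), at 521.6 and 684.3 against 1039.2 to 2891.6, and both were set apart from all 7 compartments. EREB (2.22-fold) and EIN4 (1.78-fold), an ethylene receptor, also rose, EIN4 with an adjusted p of 0.24 and 0.0711 without endosperm array 1 and 2. Of 16 measured ethylene genes 3 rose, 6 fell (3 without endosperm array 2) and 7 did not pass.

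**Figure D3:**
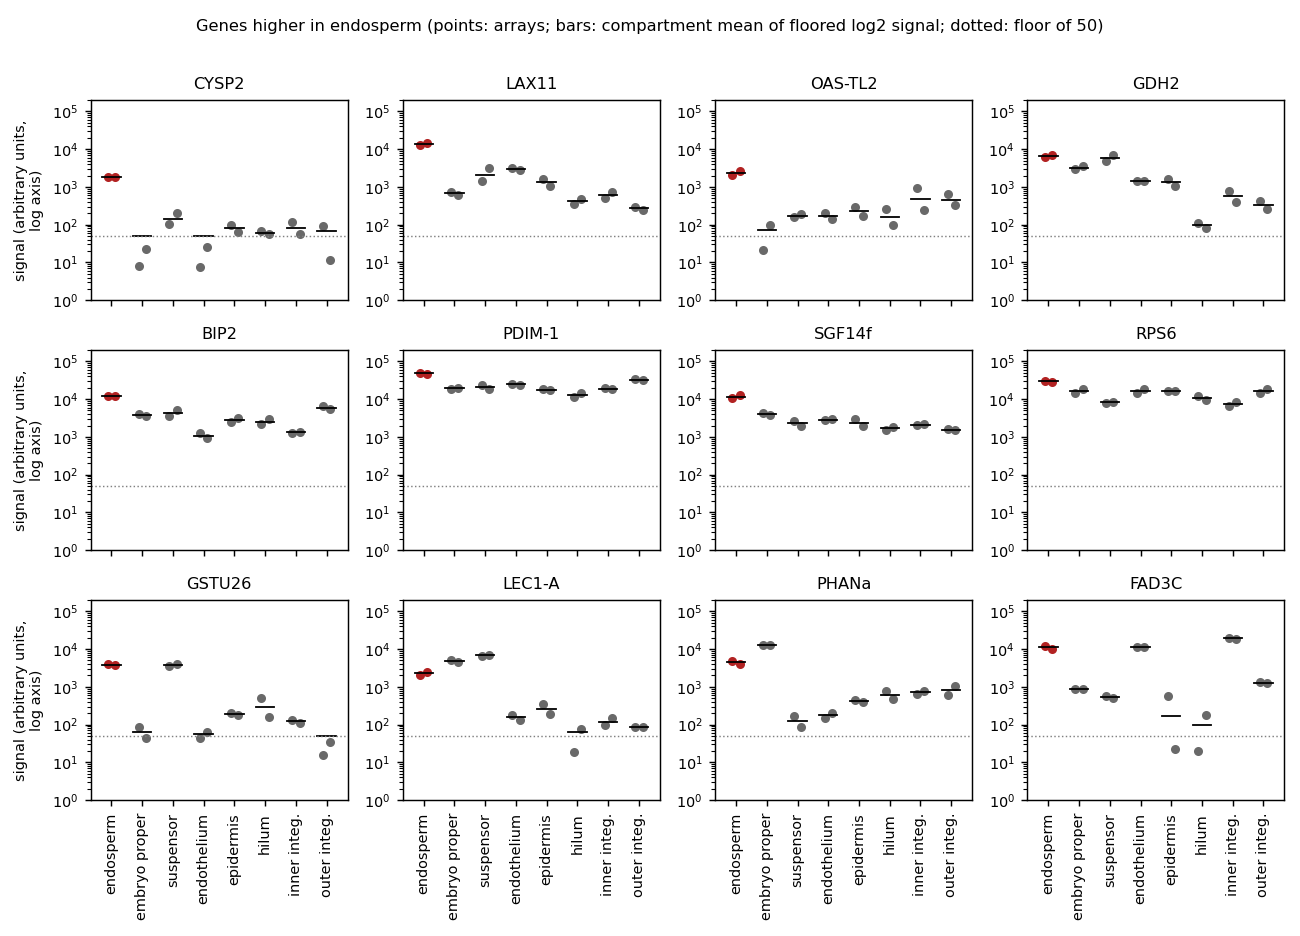
Signal on each array (points, 2 per compartment, log axis, arbitrary units) for 12 genes higher in endosperm, with endosperm in red and bars for the compartment means after flooring at 50. CYSP2, LAX11, OAS-TL2, BIP2, PDIM-1, SGF14f and RPS6 had both endosperm arrays above all others, while GDH2, GSTU26, LEC1-A, PHANa and FAD3C shared a high level with at least 1 other compartment.

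Lipid genes of the plastid rose more often than they fell. SACPD-C, the stearoyl-ACP desaturase that turns stearate into oleate, read 2628.0 and 3564.2 in endosperm against 60.6, 562 and 1843.5. Both arrays were above all others, with hilum the lowest compartment at 68.8. The rise was 6.84-fold (log2 2.78 ± 0.46 SE, adjusted p = 0.00017). ACCB-2, the biotin carrier subunit of acetyl-CoA carboxylase, read 9684.8 and 8342.8 and was 4.21-fold higher (adjusted p = 5.6e-06), though embryo proper was as high at a mean of 11500 and inner integument was at 261. The biotin carboxylase genes ACCC-2 and ACCC-3 rose 2.61-fold and 1.75-fold, again with embryo proper the highest compartment (24800 and 21600). Of 10 measured genes of plastid fatty acid synthesis, 5 rose, 0 fell and 5 did not pass (median log2 fold 0.72).

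Desaturases that act after export from the plastid, or in its membranes, did not move as a group. FAD3C, which makes linolenate in the endoplasmic reticulum, read 12169.5 and 10093.8 in endosperm, while the compartment means were 11600 in endothelium, 19300 in inner integument and 1270 or less in the remaining 5. It was 9.92-fold higher (adjusted p = 0.000175) against the mean of 7 and higher than 5 of them. FAD3B, from the same family, read 1391.0 and 1360.9 against 182.5 to 782.1 (3.01-fold, adjusted p = 0.000986). FAD8.2, a plastid desaturase, fell 3.59-fold and DGAT3-2, a triacylglycerol synthesis gene, fell 2.43-fold. Of 12 measured members 3 rose, 3 fell and 6 did not pass.

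The 14-3-3 proteins, adaptors that bind phosphorylated partners, rose in 5 of 8 measured genes and fell in 0, with a median log2 fold of 1.02. SGF14f read 10446.9 and 12559.4 in endosperm against 1478.4, 2110 and 4317.5. Both endosperm arrays lay above all others, with embryo proper the nearest at a mean of 4020, and SGF14f was 4.94-fold higher (log2 2.30 ± 0.19 SE, adjusted p = 8.18e-08). GF14A, at 23795.8 and 21069.4 against 4881.6 to 13648.3, was 2.4-fold higher (adjusted p = 2.11e-06), and both genes were higher than in each compartment. GF14B rose 3.55-fold, with embryo proper close at a mean of 2530, and SGF14M rose 2.2-fold, with suspensor close at 33400. All 4 measured ribosomal protein genes rose, each with both endosperm arrays above all 14 others: RPS6 by 2.36-fold (29758.9 and 29055.2 against 6383.2 to 18523.9, adjusted p = 6.92e-06), RPL37 by 2.06-fold, RPS13 by 1.85-fold and RPL2 by 1.67-fold. Inner integument was the lowest compartment for all 4.

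Signalling and wall genes contained isolated rises. CLV1A, a receptor-like kinase, read 767.1 and 371.5 in endosperm against 4.5, 66.9 and 188.8, above all other arrays but unequal between the 2. Its 6.46-fold rise (adjusted p = 0.000886) became 4.5-fold with an adjusted p of 0.0544 without endosperm array 1. SERK1, a co-receptor kinase, was steadier at 16340.9 and 16759.0 against 1665.8 to 8616.5 (3.38-fold, adjusted p = 9.24e-07, higher than each compartment). The other receptor-like kinases that passed were lower, such as BRI1B, a brassinosteroid receptor, at 126.7 and 111.2 against 241.0 to 2697.1 (6.42-fold), RLK1 (5.51-fold) and RLK2 (3.87-fold). Of 10 measured, 2 rose (1 without endosperm array 1), 6 fell and 2 did not pass. CDPK-BETA, a calcium-dependent protein kinase, read 1185.1 and 961.7 against 23.6, 95.6 and 928.3, with suspensor next at a mean of 839 and the other means at 131 or less (9.24-fold, adjusted p = 7.58e-06). EXP2, an expansin that loosens walls, read 14226.1 and 17608.3 against 782.6 to 12189.0, with outer integument (12100) and suspensor (9400) the nearest (5.82-fold, adjusted p = 1.87e-07). PGIP, a polygalacturonase inhibitor, read 1166.6 and 2269.8, was 9.76-fold higher (adjusted p = 8.55e-06) and stood below suspensor, whose mean was 10500. MFT, of the phosphatidylethanolamine-binding family of FLOWERING LOCUS T and mentioned after its values were seen, had the same shape, with 7344.1 and 8985.2 in endosperm, a mean of 17400 in suspensor and 59.8 to 392 elsewhere (30.0-fold, adjusted p = 4.04e-07, or 0.148 in the 2-group fit). GSTU26, a glutathione S-transferase, likewise shared its level with suspensor alone: 3960.6 and 3713.8 in endosperm, a mean of 3750 in suspensor and 50 to 287 elsewhere (22.2-fold, adjusted p = 1.62e-07).

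The remaining genes among the 24 largest rises were CYP97B2, a cytochrome P450 (4.58-fold, adjusted p = 1.82e-05), GRR1 (3.71-fold, adjusted p = 1.08e-05, with another probe set of opposite sign), EBP (4.2-fold, adjusted p = 0.000101), WRKY52 (4.67-fold, adjusted p = 0.00161), MYB52 (3.73-fold, adjusted p = 5.74e-05), bZIP53A (3.59-fold, adjusted p = 3.37e-05) and PIP2-10 (8.61-fold, adjusted p = 1.61e-05). MYB52 was higher than in each compartment, with 2134.1 and 1944.3 against 333.8 to 1125.2. The bright factor bZIP53A, at 29955.2 and 24509.1, was approached by inner integument, at a mean of 18400. Probe sets that may bind related transcripts stand behind ERF5, HSP23.9, HSP90A1, OAS-TL3, WRKY52, EBP, MYB52, GF14A, PDIL-2, EREB, ACCC-2, RPS6, RPL37, RPS13 and STP1.

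Regulators of the embryo were found in endosperm as well. LEC1-A, an NF-Y subunit that in Arabidopsis directs embryo identity and maturation, read 2071.3 and 2546.0 in endosperm. The compartment means were 4850 in embryo proper, 6780 in suspensor and 62.6 to 256 in the 5 seed coat parts, so the endosperm level was lower than in suspensor and higher than in each seed coat part. Against the mean of 7 it was 6.31-fold higher (log2 2.66 ± 0.31 SE, adjusted p = 4.49e-06). PHANa, a PHANTASTICA-type MYB factor known from leaf polarity, read 4921.6 and 4033.2 in endosperm, 12600 on average in embryo proper and 122 to 808 in the other 6. It was 7.02-fold higher (adjusted p = 1.36e-06), lower than in embryo proper and higher than in each of the other 6. Of the other embryo proper markers that were above background in embryo proper, GmYABBY11 read 26.1 and 33.5, KTI3 67.3 and 140.2 and CAB3 492.1 and 368.6 on the endosperm arrays. The part of carried-over RNA in the LEC1-A and PHANa values was not tested.

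Genes of seed maturation behaved likewise as a mixture. PM12 read 2707.7 and 4881.6 in endosperm against a mean of 62300 in suspensor, 2410 in embryo proper and 50 to 345 in the seed coat parts (8.73-fold, adjusted p = 4.64e-06). PM29 read 1670.6 and 1438.6, beside 3260 in embryo proper, 4560 in suspensor and 93 or less elsewhere (8.04-fold, adjusted p = 1.77e-05, and 24.6-fold with no floor). PM25, a suspensor marker here, was at 42.8 and 13.2. Of 29 measured late embryogenesis and maturation genes, 6 rose (3 without endosperm array 1), 5 fell and 18 did not pass. The falls were 2 without endosperm array 1 or 2, 3 with no floor and 12 with a floor of 100. Of 7 measured storage protein genes, glycinins GY1, GY2, GY3, GY5 and GY7 among them, 0 passed in limma's test, 1 had an unadjusted p under 0.05 and 0 passed in the 2-group fit. All 7 were under background on the lower side.

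Other transcription factor families divided. Of all named genes 16.0% rose and 27.7% fell, and the 4 families that follow were below that share of falls. Of 57 measured MYB genes, 6 rose (10.5%) and 14 fell (24.6%). Of 58 bZIP genes, 7 rose (12.1%) and 13 fell (22.4%). Of 45 WRKY genes, 5 rose (11.1%) and 10 fell (22.2%), and of 18 NAC genes 4 rose and 4 fell (22.2% each). BZIP70 (4.18-fold), BZIP10 (3.11-fold) and BZIP9 (3.27-fold, 644.7 and 843.9 against 139.7 to 323.1) were among the rises; BZIP9 was higher than in each compartment and had an adjusted p of 0.0611 without endosperm array 2. HD2A, a plant-specific histone deacetylase, read 8760.1 and 7343.1 against 1791.7 to 5002.3 and was 2.61-fold higher (adjusted p = 6.31e-06). WRKY4 fell 10.2-fold (187.4 and 284.9 against 1290.1 to 4367.4, adjusted p = 5.82e-08), BZIP126 10.2-fold and MYB73 10.5-fold. Another probe set had the opposite sign for WRKY4 and BZIP70. Without endosperm array 1, 3 WRKY, 8 bZIP and 1 NAC genes fell and 3 MYB genes rose, and without endosperm array 2, 3 WRKY, 4 bZIP and 3 MYB genes rose.

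**Figure D4:**
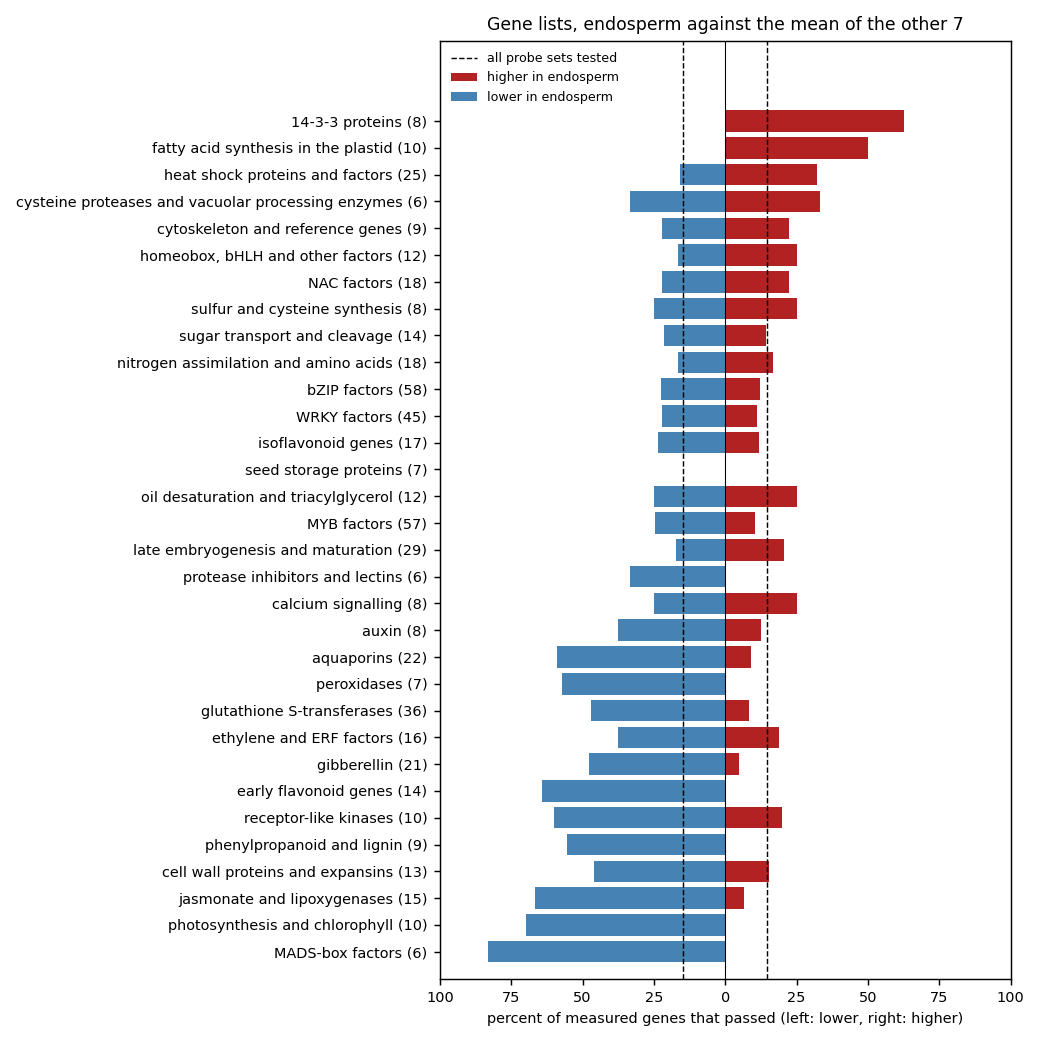
Percent of measured genes that were higher (right, red) or lower (left, blue) in endosperm than the mean of the other 7 compartments, for gene lists with at least 6 measured members (numbers in brackets). The dashed lines mark 14.5% higher and 14.9% lower among all tested probe sets (among all named genes the shares were 16.0% and 27.7%), and lists are ordered by median log2 fold.

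Falls outnumbered rises among named genes (27.7% and 16.0%), while over all tested probe sets the shares were near equal (14.9% and 14.5%). Photosynthesis genes fell in 7 of 10 measured members and rose in 0 (median log2 fold -2.53), with 1 rise at an unadjusted p under 0.05. There was 1 rise that passed without suspensor array 1 or epidermis array 1, with a floor of 100, with no filter or either of the stricter filters, and with whole seed in the fit. RCA14, Rubisco activase, read 120.9 and 109.6 in endosperm against 1473.6, 3530 and 6050.4 (lowest, median, highest). All 14 other arrays lay far above, and embryo proper led with a mean of 5580. RCA14 was 29.0-fold lower (log2 -4.86 ± 0.21 SE, adjusted p = 4.9e-11). CAB3, a chlorophyll a/b-binding protein, read 492.1 and 368.6 against 2295.3, 14400 and 38522.1 and was 22.2-fold lower (adjusted p = 5.82e-11), with another probe set of opposite sign. Both were lower than in each compartment. ELIP, an early light-induced protein, fell 5.85-fold. RCABETA, the beta form of Rubisco activase, fell 9.39-fold, and 5.7-fold or 15.5-fold without endosperm array 1 or 2.

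Aquaporins, the water channels of plasma membrane and vacuole, fell in 13 of 22 measured genes, rose in 2 and did not pass in 7 (median log2 fold -0.77). Without endosperm array 1 the falls were 6, and without endosperm array 2 they were 8. PIP2-4 read 193.9 and 167.2 in endosperm against 196.2, 4480 and 75116.0, just below a suspensor array and far below epidermis, where the mean was 59900. It was 33.4-fold lower (log2 -5.06 ± 0.47 SE, adjusted p = 3.22e-07). PIP2-8, at 279.9 and 105.4, fell 43.1-fold (adjusted p = 6.78e-08), with 70.2-fold and 26.4-fold without endosperm array 1 and 2, and suspensor was as low at a mean of 134. PIP1-1 had 5.2 and 6.8 in endosperm, both below the floor, which makes it at least 9.86-fold lower. PIP2-9 fell 5.63-fold. In the other direction, PIP2-10 read 1628.4 and 1554.0 against 30.5, 147 and 740.1, above all other arrays, with suspensor and inner integument next at means of 653 and 556. SIP1-3, a small basic intrinsic protein, rose 2.65-fold, with endothelium close at a mean of 3110. PIP2-1, mentioned after its values were seen, had probe sets that went opposite ways. The brighter of them was 1.59-fold lower (adjusted p = 0.0202, or 0.0512 and 0.296 without endosperm array 1 and 2 and 0.835 in the 2-group fit, and not passing with no filter or no variance trend) and is the PIP2-1 fall counted above, while the other read 7142.9 and 9407.8 against 49.3, 437 and 6238.3 and was 14.8-fold higher (adjusted p = 1.45e-08, or 0.141 in the 2-group fit).

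Genes of jasmonate synthesis and lipoxygenases fell in 10 of 15 measured members, rose in 1 and did not pass in 4 (median log2 fold -2.15). AOC3, allene oxide cyclase, which makes the jasmonate ring, read 119.3 and 131.6 in endosperm against 373.8, 5250 and 22370.8. Suspensor was the nearest compartment with a mean of 442, and all others were at 3980 or more. The fall was 39.3-fold (log2 -5.30 ± 0.18 SE, adjusted p = 4.8e-12). AOC4 read 101.8 and 212.0 against 598.5 to 14512.5 (18.7-fold, adjusted p = 1.18e-09). The lipoxygenases LOX1.4 (LOC547835), at 37.7 and 52.7 against 95.2 to 33218.3, and VLXB, at 406.7 and 251.9 against 843.4 to 22507.1, fell 20.6-fold and 9.8-fold. All 4 were lower than in each compartment, and outer integument was the highest for each. LOX10 was the member that rose (3.59-fold, adjusted p = 0.0176), and its adjusted p was 0.177 and 0.092 without endosperm array 1 and 2.

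Gibberellin genes fell in 10 of 21 measured members, rose in 1 (2 without suspensor array 2 or epidermis array 2) and did not pass in 10, and 9 of the falls were GASA genes, which encode small cysteine-rich peptides regulated by gibberellin. GASA14 read 107.3 and 15.4 in endosperm against 849.8, 2270 and 23871.3. Its 54.5-fold fall (log2 -5.77 ± 0.22 SE, adjusted p = 1.25e-11) was 98.2-fold with no floor, since array 2 was under the floor and the endosperm mean under background. Embryo proper (19500) and hilum (22700) were the highest compartments. GASA27 read 494.1 and 661.3 against means of 6880 to 25700 in 6 compartments, and only suspensor, at 691, overlapped it (18.5-fold, adjusted p = 2.29e-11). GASA22 was at least 21.6-fold lower, with both endosperm arrays under the floor, and 11.3-fold with a floor of 100. GASA6 fell 13.1-fold and GASA9 5.67-fold, the latter beside an embryo proper that was lower still at a mean of 420. GAI1, a DELLA repressor of gibberellin response, was the rise (2.73-fold, adjusted p = 0.000465, 5767.0 and 7137.7), beside embryo proper at 9420 on average, with another probe set of opposite sign. CKX3, a cytokinin oxidase that degrades cytokinin, read 54.2 and 73.3 against 167.5, 499 and 24503.1, with the highest mean, 23400, in outer integument. It fell 20.3-fold (log2 -4.35 ± 0.32 SE, adjusted p = 2.75e-08), or 12.8-fold with a floor of 100.

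**Figure D5:**
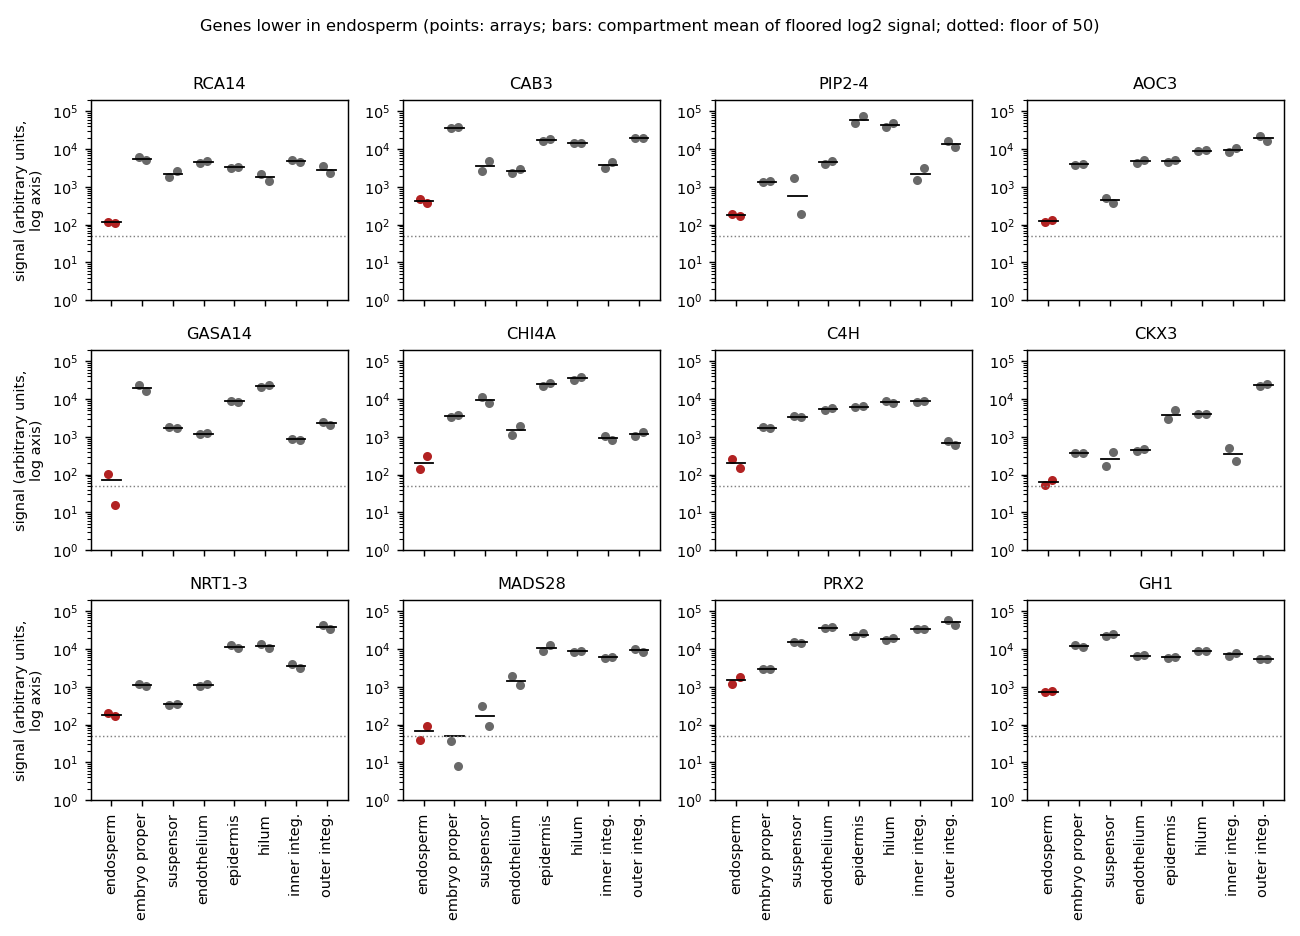
Signal on each array (points, 2 per compartment, log axis, arbitrary units) for 12 genes lower in endosperm, with endosperm in red and bars for the compartment means after flooring at 50. Endosperm lay below all other arrays for 11 of them, and for MADS28 embryo proper was as low.

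Phenylpropanoid and early flavonoid genes that passed were all lower in endosperm. C4H, cinnamate 4-hydroxylase at the entry of the pathway, read 262.7 and 152.5 in endosperm against 616.2, 5420 and 9177.3. The nearest compartment was outer integument with a mean of 694, and C4H was 18.8-fold lower (log2 -4.23 ± 0.19 SE, adjusted p = 6.51e-11). Of 9 measured phenylpropanoid genes 5 fell and 4 did not pass, with 4CL2 (5.16-fold, or 9.23-fold and 2.88-fold without endosperm array 1 and 2), 4CL3 (4.44-fold) and 4CL4 (3.5-fold) among them. Without endothelium array 1 or either epidermis array 1 phenylpropanoid gene rose. CHI4A, of the chalcone isomerase family, read 144.0 and 303.4 against 831.8, 3550 and 37711.7 and was 22.4-fold lower (adjusted p = 8.86e-10), with hilum and epidermis the highest at 35300 and 24400. CHI2-A fell 7.64-fold and CHI1A 6.48-fold, both highest in suspensor, and F3H fell 3.73-fold, highest in hilum and epidermis. Of 14 early flavonoid genes 9 fell (5 without endosperm array 1) and 5 did not pass. Isoflavonoid genes were divided, with 2 of 17 up, 4 down and 11 not past the threshold. IFR2, an isoflavone reductase, read 2022.7 and 1472.0 against 8642.4 to 34442.9 and was 9.14-fold lower (adjusted p = 1.91e-10), while IF7MaT, a malonyltransferase, was 5.59-fold higher (adjusted p = 4.08e-05) but below embryo proper and suspensor, whose means were 9780 and 11400. PTS-L5 rose 2.79-fold, with 4.61-fold without endosperm array 1 and 1.69-fold at an adjusted p of 0.387 without endosperm array 2.

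The MADS-box factors, floral and seed coat identity genes, fell in 5 of 6 measured members (median log2 fold -3.33). AGL1L read 117.4 and 261.6 in endosperm, with embryo proper at the floor of 50, suspensor at 227 and the seed coat parts at 10200 to 19900 (19.5-fold lower, adjusted p = 4.27e-10). MADS28 read 39.9 and 91.7, with embryo proper at the floor, suspensor at 165 and the seed coat parts at 1460 to 10700 (26.6-fold lower, adjusted p = 1.74e-08). SEP1 had the same shape at 76.1 and 116.8 (13.5-fold), and AGL3L, at 164.4 and 228.1, fell 7.53-fold and lay below all 14 other arrays. Embryo proper and suspensor were low in these genes too, and the seed coat parts were high.

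Peroxidase and wall genes fell in more members than rose. PRX2, a peroxidase, read 1219.5 and 1804.7 in endosperm against 2982.6, 24300 and 58529.8, below all other arrays, with embryo proper the nearest at 3000. It was 13.5-fold lower (log2 -3.75 ± 0.15 SE, adjusted p = 1.54e-11), and PRX2B was 17.2-fold lower, with endothelium and inner integument at means of 713 and 580. PRX3 and PRX4 fell 2.59-fold and 1.71-fold, each with another probe set of opposite sign. PRX3 lost its call without endosperm array 1 (adjusted p = 0.217) and PRX4 without either endosperm array (0.242 and 0.117) or embryo proper array 2 (0.0519), and with quantile normalization. Of 7 peroxidases 4 fell (2 without endosperm array 1) and 3 did not pass. XTH1, a xyloglucan-modifying enzyme, read 733.2 and 338.3 against 1120.0 to 55338.5 and fell 9.73-fold (adjusted p = 1.4e-08). PRP3, a proline-rich wall protein, fell 11.8-fold, though embryo proper was lower at a mean of 76, and SBPRP fell 10.6-fold (5.15-fold and 21.9-fold without endosperm array 1 and 2). Of 13 wall genes 6 fell, 2 rose (EXP2 and PGIP, above) and 5 did not pass, with a median log2 fold of -1.95. Of 36 glutathione S-transferases, 17 fell (11 without endosperm array 2), 3 rose (GSTU26, GSTU41 by 3.3-fold and GSTU27 by 1.98-fold) and 16 did not pass. GSTU27 lost its call without endosperm array 1 (adjusted p = 0.195) or 2 (0.256), without 12 of the other 14 arrays taken singly, with a floor of 25 or no floor, and with whole seed in the fit. GSTU30 read 105.9 and 103.9 against 310.4 to 12568.7 (21.8-fold lower, adjusted p = 1.73e-10), and GSTL3 1358.8 and 1361.6 against 3582.5 to 21178.5 (6.92-fold lower, adjusted p = 5.68e-10).

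Further falls below all other arrays were found among signalling, light and carbon genes. NRT1-3, the nitrate transporter, read 206.9 and 165.9 against 340.4, 3680 and 43996.7, with suspensor the nearest at 346 and outer integument at 39100 (log2 -4.30 ± 0.19 SE, adjusted p = 4.75e-11). CRY2B, a cryptochrome that senses blue light, read 67.1 and 71.4 against 304.9 to 10969.9 and was highest in suspensor, at 10700 (18.7-fold lower, adjusted p = 5.41e-08). PSK3, a precursor of the peptide hormone phytosulfokine, read 202.5 and 322.4 against 457.2 to 52279.4 (20.9-fold lower, adjusted p = 4.42e-10). SRC1 read 200.5 and 335.2 against 471.4 to 26099.7 (21.5-fold lower, adjusted p = 4.9e-11). The nearest compartment mean was 462 in hilum for PSK3 and 472 in embryo proper for SRC1. GH1 read 733.7 and 771.0 in endosperm against 5327.8, 7530 and 24797.8 (11.7-fold lower, adjusted p = 1.1e-11). PEPC17, a phosphoenolpyruvate carboxylase, read 140.6 and 19.1 against 667.6 to 2571.3 (13.8-fold lower, adjusted p = 1.29e-07), and 23.1-fold or 8.2-fold without endosperm array 1 or 2. Probe sets that may bind related transcripts stand behind GASA14, PIP2-4, RCA14, CHI4A, CAB3, GSTU30, SRC1, PSK3, LOX1.4, C4H, ELIP, RCABETA, CHI1A, F3H, 4CL2, PRP3, ADR11, RLK2, IF7MaT, GSTU41, OAS-TL4, BZIP70, VPE2, CP3, TIR1C, HSP17.5-E and DGAT3-2.

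Sugar genes showed no common direction: 2 of 14 rose, 3 fell and 9 did not pass. SWEET13, a sugar exporter, was at 36.0 and 44.2 in endosperm, with both arrays below the floor, which makes it at least 6.41-fold lower (adjusted p = 0.000248) with inner integument (7360) and endothelium (1250) high. SWEET24, at 353.3 and 886.5, fell 4.47-fold (2.82-fold and 7.08-fold without endosperm array 1 and 2) but was higher than in embryo proper and suspensor, whose means were 72 and 50. STP1, a hexose transporter, rose 2.26-fold (6441.2 and 6834.2, adjusted p = 0.000475) and was lower than in endothelium and inner integument, at 22200 and 25400. SS, sucrose synthase by name, rose 1.43-fold (adjusted p = 0.00273, or 0.0611 without endosperm array 2 and 0.0626 with no variance trend), with another probe set of opposite sign.

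The genes whose 8 compartment means ran most closely with CYSP2 were HSF-10 (Pearson r = 0.993), GmCUPIN07.3 (0.971), GS1alpha (0.936), SNAP-1 (0.917) and CLV1A (0.883). With endosperm far above a nearly level remainder, such a correlation mainly shows that endosperm was high, and it is a description over 8 means. HSF-10, a heat-shock transcription factor, read 1240.8 and 1402.2 against 251.2, 399 and 876.1, above all other arrays (3.21-fold, adjusted p = 0.00366, or 0.0663 without endosperm array 2). GmCUPIN07.3, of the cupin family, read 438.8 and 494.6 (3.09-fold higher). SNAP-1 was bright, at 36311.3 and 32862.8, and 2.67-fold higher.

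The lists not described above were small or mixed. Protease inhibitors and lectins rose in 0 and fell in 2 of 6 measured genes, KTI-3 by 5.26-fold and BBI-1 by 3.27-fold. KTI-3 was 2.61-fold lower with an adjusted p of 0.0969 without endosperm array 1 and 10.6-fold lower without endosperm array 2. BBI-1 had adjusted p-values of 0.225 and 0.0664 without these arrays, and lost its call with a floor of 25, no floor or no filter. Calcium signalling genes rose in 2 and fell in 2 of 8, with SCAM-1, a calmodulin, 6.02-fold lower (adjusted p = 6.62e-10). Cytoskeleton and reference genes rose in 2 and fell in 2 of 9, homeobox, bHLH and other factors rose in 3 (LEC1-A and HD2A among them) and fell in 2 of 12, and histone and cell division genes rose in 1 of 3. Anthocyanin and proanthocyanidin genes fell in 2 of 4, starch genes rose in 1 and fell in 1 of 4 (GBSSIa, a granule-bound starch synthase, by 4.03-fold), cytokinin genes fell in 1 of 2 (CKX3), and the abscisic acid list held 1 gene, which did not pass. Leaving out single arrays moved these counts by up to 2 genes, and in the 2-group fit 1 call among them remained in calcium signalling and 1 among the other factors.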

How the data were processed

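The gene lists and their members were chosen with earlier results of these data known. Signals were deposited by the authors as intensity, a linear value per probe set made with GCOS 1.3 per the submitters' processing notes, and the sources used here do not give that software's settings. Each array had a 2% trimmed mean of 500, and 12 values were 0. The number of arrays limits the precision. Of 61170 probe sets, 37593 were for soybean, and 31760 that reached 100 on 2 or more of the 16 arrays were tested. After flooring at 50 and log2, limma 3.58.1 in R 4.3.3 (lmFit and eBayes with a variance trend) fitted 8 compartment means without whole seed. The contrast set endosperm against the equally weighted mean of the other 7, and 7 further contrasts set it against each, each adjusted by Benjamini-Hochberg with a threshold of 0.05. Standard errors (SE) of log2 folds are moderated ones. Where all lower-side arrays of a group were under the floor, a fold is written as at least that size.

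Of the soybean probe sets, 8677 had 1 symbol in the probe annotation, 370 had several and 28546 were not listed, and 8652 matched the reference gene table. Of 5679 genes with 1 symbol tested, 1041 had a name other than a gene number. Each gene was read from its brightest probe set by mean log2 signal. Named were the 24 largest rises above all 14 other arrays, the 20 largest falls below them, up to 4 members with the smallest p of each of 38 name lists (25 chance matches of spelling removed), members that passed against their list's direction, and the 5 genes most like CYSP2. No coordinates or sequences were used.

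In data simulated for this contrast, 200 of 31760 probe sets were changed: 16.4% of 2-fold, 56.2% of 4-fold and 70.2% of 8-fold changes were recovered. False calls averaged 6.33 over 3 runs. In the real data 9310 probe sets were called, and the Benjamini-Hochberg adjustment is stricter where fewer probe sets change. The simulated rates therefore do not give the recovery in the real data. Arrays with the same replicate number in their titles showed no shared deviation: over 28 pairs of compartments the correlation of same-numbered deviations was -0.073 to 0.083. Such correlations cannot tell whether same-numbered captures came from the same seeds. Alternatives varied the floor, the filter, the normalization, the variance model, the arrays in the fit, a replicate block and a 2-group fit.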

Additional observations from a re-analysis of the deposited data

How the results depend on the processing

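Over 28 settings, 16 of which left out 1 array each, no probe set changed to the opposite call against the mean of the other 7. The fits without 1 array assume that a compartment left with 1 array varies like the others. Leaving out 1 array gave 5094 to 9657 probe sets called, 2339 to 4792 higher and 2755 to 4865 lower. It gave 232 to 547 higher than each of the 7 and 372 to 532 lower than each. Against single compartments the ranges were 4311 to 7237 for embryo proper, 4594 to 7415 for suspensor, 4941 to 7660 for endothelium, 4925 to 7916 for epidermis, 5888 to 9229 for hilum, 6970 to 9935 for inner integument and 6514 to 9672 for outer integument. The 2-group fit gave 1349 called, 744 higher and 605 lower, since it takes the differences among the other compartments as spread. Without a variance trend 372 were higher than each, and the cause was not tested. Without the 3 arrays of high background, 4989 differed from epidermis, with fewer samples in the fit. With the replicate number as a block, 9259 probe sets were called. Whether the numbers pair the arrays is not known, and this fit is given for completeness. Of 8154 values of 292 named genes, 7550 stayed on their side of the threshold, 590 lost and 13 gained the call, and 1 reversed: WRKY29 had a log2 fold of -0.98, and 0.01 with no floor, where signals under 50 enter as they are. Most of the 590 lost calls came from the 2-group fit, with 237, and from the fits without an endosperm array, so the pooled figure says little about those settings. Of 2128 list counts, 1994 stayed within 1.5 times. Quantile normalization moved the median log2 fold of all probe sets from -0.099 to 0.037, so changes near 0 depend on the scaling. An alternative on promoters was not run, as no promoter sequences were used. Folds whose lower side lies under background are limited by it.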

Other observations

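Whole seed entered no comparison above, and its signals are given here for the probe sets that set endosperm apart. For the 568 probe sets higher in endosperm than in each other compartment, the median signal was 6880 in endosperm, 1880 in whole seed and 1250 over the other 7 compartments. Whole seed exceeded endosperm in 1 of them (0.176%) and was below the mean of the other 7 in 172. For the 548 probe sets lower than in each, the median was 305 in endosperm, 2570 in whole seed and 2340 over the other 7, and whole seed exceeded endosperm in 540 (98.5%), against 45.2% of all tested probe sets. Whole seed was below the mean of the other 7 in 281 of the 548. Both sets were chosen because endosperm lay beyond each other compartment, and whole seed holds those compartments. The counts of whole seed above endosperm therefore largely follow from the choice and test nothing. CYSP2 read 450.6 and 361.5 in whole seed, against 1801.8 and 1787.0 in endosperm.

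Ratios of 3' to 5' probe sets of the control gene for actin were 145 and 57.6 on endosperm arrays 1 and 2 and 31.8 to 349 on the other 14. For ubiquitin the same ratio was 0.328 and 2.31, against 0.0526 to 23.6. The ratio of 3' to middle probe sets for GAPDH was 155 and 166, against 71.5 to 287. The ratios thus differed widely between control genes and between arrays.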
